A study of Mus musculus with 40 samples.

Results

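Homozygous loss of Ghr exon 3 (d3) was set against the wild-type gene (WT) in the livers of male mice fed ad libitum (AL). The comparison covers 10 of the 40 libraries of the series, 5 from d3/d3 males and 5 from WT males, taken by the genotype, sex and diet in their labels. Both groups were labelled C57BL/6NJ, and per the labels the cohort came from cryopreserved sperm of d3/d3 males used to fertilise C57BL/6NJ oocytes, followed by embryo transfer. Both had standard chow with their mothers to weaning at 30 days and free access to chow for the next 30 days, and their age at death is put at about 2 months. A second age, 28 to 34 days, stands in the text on extraction, and the values do not decide between them. The allele came through the germline and is not limited to the liver, and how the d3/d3 and WT males were bred from these founders is not given in the sources used here. Males held at 40% calorie restriction (CR; 5 d3 and 5 WT) and AL females (5 d3 and 5 WT) served as comparison pairs and share no liver with the AL males. Each library is 1 mouse. The labels used here name no collection day, no time of day and no batch.

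Growth hormone binds its receptor, encoded by Ghr, on hepatocytes, the receptor-bound kinase JAK2 phosphorylates STAT5, and STAT5 drives Igf1 and many sex-biased liver genes. Exon 3 encodes a stretch of the extracellular part of the receptor, and a common human form of the receptor also lacks its exon 3. The liver also runs a circadian clock, in which CLOCK and BMAL1 (the product of Arntl) activate the Per and Cry genes, whose proteins repress that activation. REV-ERB and ROR receptors set the rhythm of Arntl, and the bZIP factors DBP, TEF and HLF carry the rhythm to genes with a D-box.

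The feature that separates the genotypes is exon 3 of the transcript Ghr-201, which lies at chr15:3388648-3388713 on the minus strand of GRCm38 in the GENCODE M21 annotation. It is 66 bases long, or 22 codons, is coding throughout, and is present in 9 of the 10 annotated Ghr transcripts. The reference sequence is printed because its absence defines the d3 allele. Which bases were removed in these mice is not given in the labels used here.
Ghr exon 3: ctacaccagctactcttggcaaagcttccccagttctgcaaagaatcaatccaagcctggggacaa
Ghr itself (ENSMUSG00000055737, minus strand of chromosome 15, 3317760 to 3583492) had 13925, 16387, 12979, 17207 and 10204 normalized counts in d3 livers, against 14328, 14119.5, 19536, 18856 and 12223 in WT livers. The groups overlapped, and the log2 change of the level was -0.16 ± 0.21 (SE; limma adjusted p = 0.895). A gene-level count does not read the deletion, so it does not check the genotype labels.

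Values are normalized counts, the authors' read counts per gene divided by a library factor. Recovered depth was 26207949 to 38944650 reads in the d3 livers and 21132490 to 36482554 in the WT livers. The mean log2 level of 8 measured hepatocyte markers was 17.70 to 17.91 in d3 and 17.68 to 18.19 in WT livers, so every library carried liver RNA as labelled. Several libraries stood apart by RNA of other tissues. Of 16 skeletal muscle markers, 15 were measured. They summed to 38961 and 256515 normalized counts in d3 replicates 1 and 3 and to 79125 in WT replicate 5, against 184 to 410 in the other 7 livers. Of 12 exocrine pancreas markers, 8 were measured, and they summed to 54741 in WT replicate 5 and to 23.6 to 71.4 in the other 9 livers. Lymphocyte markers, all 8 measured, summed to 1695 in that liver and to 117 to 325 elsewhere. The mean log2 level of 8 adipocyte markers was 4.35 to 9.23 in d3 livers, 8.76 in WT replicate 5 and 4.85 to 5.45 in the other WT livers, and their median log2 change was 1.41, with 6 of 8 higher in d3 by sign. The mean log2 level of acute phase genes was 15.69 and 13.97 in WT replicates 4 and 5, against 11.26 to 13.36 in the other 8 livers. In bulk tissue, fewer cells of a type and less RNA per cell cannot be told apart. Values without WT replicates 4 and 5 are therefore also given for the called genes and for many of the other genes and lists. The sample titles carry running numbers of unstated meaning, which were 8, 63, 64, 65 and 77 in d3 replicates 1 to 5 and 13, 14, 26, 38 and 51 in WT replicates 1 to 5. The d3 numbers were higher in 4 of 5 livers, and the part of this order in any result below was not tested.

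Of 13776 genes tested with limma, 6 passed an adjusted p of 0.05 (0.0436%). The 4 that rose in d3 livers (0.029%) were the clock genes Ciart, Dbp and Per3 and the SUMO ligase gene Pias3. The 2 that fell (0.0145%) were the repressor genes Etv6 and Tle3. At an unadjusted p under 0.05 there were 1121 genes (8.14%), 541 higher (3.93%) and 580 lower (4.21%) in d3. The 5 d3 livers lay all above the 5 WT livers for 97 genes (0.704%) and all below them for 100 genes (0.726%). The median log2 change over all genes tested was 0, and an extra scaling by median ratios moved it by -6.3e-07. The values had already been divided by a library factor, so this small shift is no check on that factor. Fitted without the other 6 groups, the 10 AL male livers gave 0 called genes. Leaving out the 17 muscle-rich libraries of the series, among them d3 replicates 1 and 3 and WT replicate 5, also gave 0, with log2 changes of 2.65 for Ciart, 1.35 for Per3 and 2.02 for Dbp. edgeR on the recovered reads called 15 genes (0.109%), 5 higher (0.0363%) and 10 lower (0.0726%) in d3.

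Of the 32 gene lists other than cell type markers, the clock repressors had the highest median change. Of 8 measured, 2 rose (Ciart and Per3), 7 had a positive change and the median log2 change was 0.87, against 0 over all genes. Without WT replicates 4 and 5 the median was 1.06, and without the muscle-rich libraries it was 0.62. The lists were chosen with earlier results of these data known, and this one holds 2 called genes. Its rank among the lists therefore adds no independent evidence.

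Ciart (ENSMUSG00000038550, chromosome 3, 95878503 to 95882251 on the minus strand, GRCm38), whose product represses CLOCK:BMAL1, had 203, 587, 235, 209 and 169 normalized counts in d3 livers, against 29.3, 55.1, 20.7, 99.6 and 42.4 in WT livers. All 5 d3 livers lay above all 5 WT livers, and d3 replicate 2 was the highest of the 10. The log2 change was 2.52 ± 0.40 (SE; 95% interval 1.72 to 3.33; limma adjusted p = 0.00333). Ciart was called in all 10 fits that each omitted 1 liver, at changes of 2.22 to 2.82, and without WT replicates 4 and 5 at 2.92 (adjusted p = 0.00172). It did not pass when the 10 AL male livers were fitted alone (2.52, limma adjusted p = 0.501). Nor did it pass without the muscle-rich libraries (2.65, limma adjusted p = 0.491).

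Per3 (ENSMUSG00000028957, chromosome 4, 151003652 to 151044665 on the minus strand, GRCm38), a period gene, had 313, 384, 235, 453 and 197 normalized counts in d3 livers, against 66.9, 116, 242, 135 and 80.2 in WT livers. WT replicate 3 lay within the d3 range, and the other 4 WT livers lay below every d3 liver. On the log2 scale the change was 1.38 ± 0.25 (SE; 95% interval 0.87 to 1.89; limma adjusted p = 0.0153). Without WT replicates 4 and 5 the change was 1.28 and no longer passed (adjusted p = 0.136). Nor did it pass when d3 replicate 1, 2 or 4 or WT replicate 1 or 5 was omitted singly, at changes of 1.19 to 1.37 and adjusted p of 0.0592 to 0.12.

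The other repressors did not pass the test over all genes. Per1, the light-responsive period gene, had 1013, 1584, 1372, 1328 and 1875 normalized counts in d3 livers, against 716, 366, 472, 1654 and 341 in WT livers. WT replicate 4 was the one WT liver as high as the d3 livers. The change was 1.26 ± 0.33 on the log2 scale (SE; limma adjusted p = 0.198), and 1.63 without that liver (adjusted p = 0.0167). Cry2, a cryptochrome gene, had 1511, 1777, 1704, 1549 and 1042 normalized counts in d3 livers, against 867, 1182, 835, 942 and 859.5 in WT livers. d3 replicate 5 alone lay within the WT range. Its log2 change was 0.68 ± 0.15 (SE), with adjusted p = 0.069 in limma and 0.0447 in edgeR, and it passed in limma without d3 replicate 5 (0.81, adjusted p = 0.00775) or WT replicate 2 (0.77, adjusted p = 0.023). Bhlhe40, which encodes the repressor DEC1, had 1955, 2274, 2805, 2559 and 1981 normalized counts in d3 livers, against 900.2, 933, 1186, 4353 and 899.6 in WT livers. In WT replicate 4 it was above every d3 liver, while the other 4 WT livers were below every d3 liver. Its log2 change was 0.80 ± 0.26 (SE; limma adjusted p = 0.358) over all livers and 1.20 without WT replicates 4 and 5 (adjusted p = 0.00343), and 1.24 without WT replicate 4 alone (adjusted p = 0.000255). Bhlhe41, encoding the related DEC2, ranged over 16.5 to 185 normalized counts in d3 and 23.5 to 84.6 in WT livers, a log2 change of 0.94 ± 0.51 (SE). Per2 ranged over 352 to 542 in d3 and 236 to 599.6 in WT livers (0.26 ± 0.27, SE, and 0.41 without WT replicates 4 and 5). Cry1 was the one repressor with a negative change, at -0.49 ± 0.22 (SE; limma adjusted p = 0.548), with 287 to 866 normalized counts in d3 and 475 to 959 in WT livers. The Cry1 change was -0.28 without WT replicates 4 and 5.

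**Figure D1:**
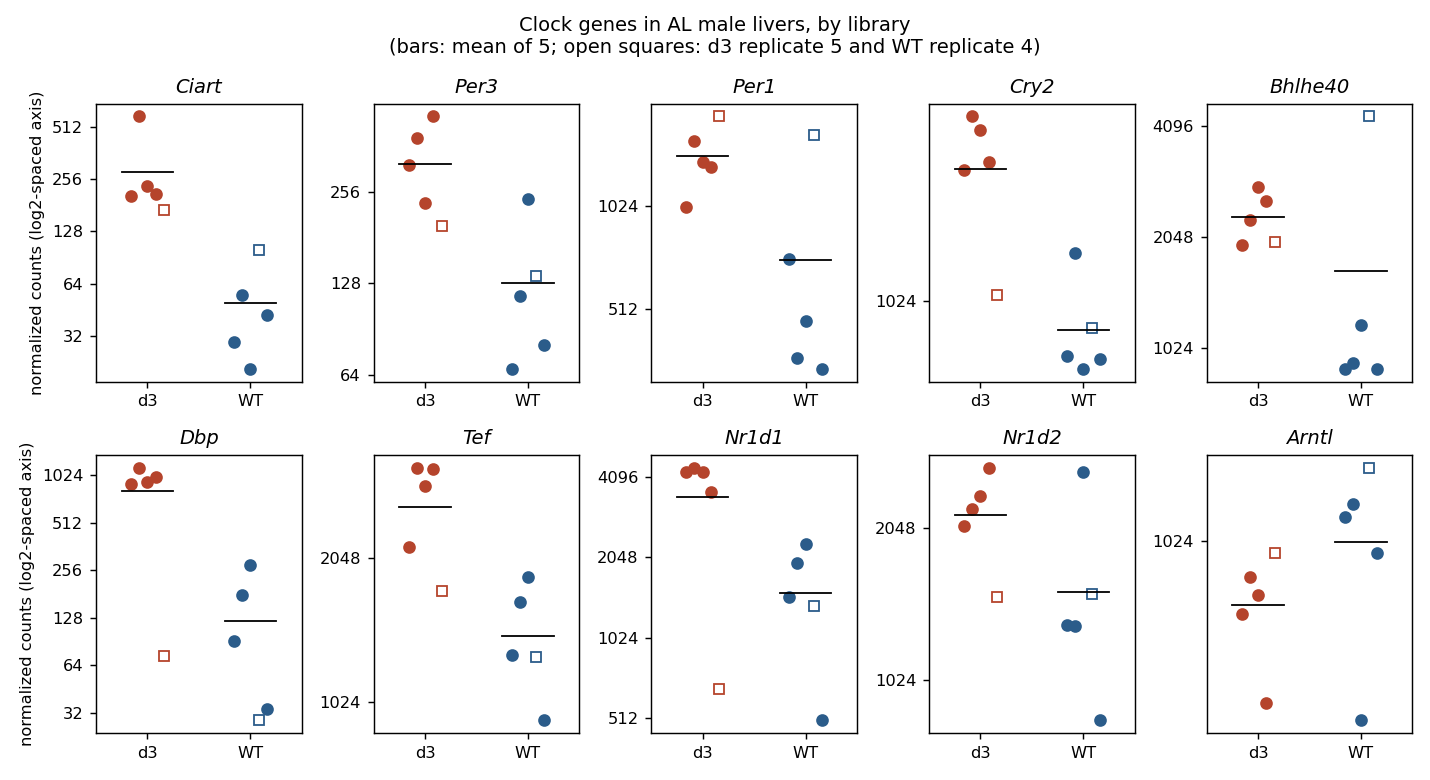
Normalized counts of 10 clock genes in each AL male liver on a log2-spaced axis, d3 at left and WT at right, with the mean of 5 as a bar. The groups are apart for Ciart, d3 replicate 5 (open square) lies at or near the WT livers for Dbp, Cry2, Nr1d1 and Nr1d2, and WT replicate 4 (open square) lies at or above the d3 livers for Per1 and Bhlhe40.

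None of the 7 activators and genes of the ROR and REV-ERB loop was called, and the median log2 change was 0.029. Nr1d1, which encodes REV-ERB alpha, a repressor of Arntl, had 4289, 4450.0, 4283, 3609 and 656 normalized counts in d3 livers, against 1451, 1949, 2297, 1351 and 501 in WT livers. It was above every WT liver in 4 of 5 d3 livers, and d3 replicate 5 was below 4 of the 5 WT livers. The change was 1.09 ± 0.42 on the log2 scale (SE; limma adjusted p = 0.452), against 0.62 without WT replicates 4 and 5 and 0.35 without the muscle-rich libraries. Nr1d2, for REV-ERB beta, had 0.58 ± 0.19 on the log2 scale (SE; limma adjusted p = 0.329), with WT replicate 3, at 2643 normalized counts, near the top of the d3 range of 1495 to 2692 and a change of 0.80 without that liver (adjusted p = 0.0417). Its change was 0.36 without WT replicates 4 and 5. The activator genes Arntl, Clock and Npas2 had log2 changes of -0.23 ± 0.36, -0.12 ± 0.12 and -0.77 ± 0.46 (SE). Rora, a ROR receptor gene that acts on Arntl against REV-ERB, had 0.029 ± 0.12 (SE). In none of these 4 genes were the groups apart.

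Among the clock outputs, Dbp (ENSMUSG00000059824, chromosome 7, 45705088 to 45710203 on the plus strand, GRCm38) showed the highest change of any called gene. It had 899, 1138, 919.9, 999 and 73.7 normalized counts in d3 livers, against 91.5, 177, 276, 28.8 and 34.2 in WT livers. In 4 d3 livers the level was more than 3 times that of the highest WT liver, and in d3 replicate 5 it lay within the WT range. The log2 change was 2.77 ± 0.50 (SE; 95% interval 1.75 to 3.79; limma adjusted p = 0.0153), and omitting single livers moved it over 2.38 to 3.51. The call was lost without d3 replicate 1, 2, 3 or 4 or WT replicate 4 or 5 (2.38 to 2.61, adjusted p = 0.0641 to 0.12). Without WT replicates 4 and 5, the lowest WT livers for Dbp, it was 1.82 (adjusted p = 0.323). Tef, a second activator at D-boxes, had 2162, 3164, 2889.9, 3142 and 1747 normalized counts in d3 livers, against 1279, 1659, 1872, 1271 and 936 in WT livers. Again d3 replicate 5 was the one d3 liver within the WT range, and the change of 0.90 ± 0.22 (SE) missed the threshold (limma adjusted p = 0.151). Hlf had a change of 0.23 ± 0.15 (SE). Nfil3, which binds the same sites as a repressor, had a negative change of -0.51 ± 0.22 (SE; limma adjusted p = 0.52).

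Genes that the liver clock is known to drive were mostly on the same side but small in change. Of 17 measured, 0 were called, 14 had a positive change, where 49.9% of all genes did, and the median was 0.15. Usp2, a ubiquitin protease gene, had 0.97 ± 0.37 on the log2 scale (SE; limma adjusted p = 0.452), with 412, 676, 581, 569 and 587 normalized counts in d3 livers, against 279, 175, 284, 602 and 224 in WT livers. WT replicate 4 again lay within the d3 range. Upp2, a uridine phosphorylase gene, had a change of 0.91 ± 0.36 (SE; limma adjusted p = 0.476) and ranged over 3706 to 6232 in d3 and 1336 to 4889 in WT livers, with a change of 0.57 without WT replicates 4 and 5. Of 7 measured genes for kinases and ubiquitin ligases of the clock, 0 were called and the median was 0.061. Fbxl21, a ligase gene acting on cryptochromes, had the smallest unadjusted p of these, at a change of 0.46 ± 0.25 (SE), and 0.24 without WT replicates 4 and 5.

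The windows of 250 bases before the transcription start are shown for the called clock genes, from RefSeq on GRCm38.p6, 5′ to 3′ in the direction of each gene. Capitals mark 2 of the 3 motifs searched on both strands, the E-box CACGTG bound by CLOCK:BMAL1 and the D-box TTANGTAA bound by DBP, TEF and HLF. The windows are chr3:95882229-95882478 (minus strand) for Ciart, chr4:151044666-151044915 (minus strand) for Per3 and chr7:45704997-45705246 (plus strand) for Dbp. For Ciart and Dbp the RefSeq start differs from the GENCODE position given above, so those windows reach into the GENCODE gene bounds.
Ciart: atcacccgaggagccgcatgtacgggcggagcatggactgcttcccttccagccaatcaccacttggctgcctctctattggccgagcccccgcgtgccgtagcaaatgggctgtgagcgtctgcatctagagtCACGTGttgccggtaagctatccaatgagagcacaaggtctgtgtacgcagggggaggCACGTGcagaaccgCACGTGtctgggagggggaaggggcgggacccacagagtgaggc
Per3: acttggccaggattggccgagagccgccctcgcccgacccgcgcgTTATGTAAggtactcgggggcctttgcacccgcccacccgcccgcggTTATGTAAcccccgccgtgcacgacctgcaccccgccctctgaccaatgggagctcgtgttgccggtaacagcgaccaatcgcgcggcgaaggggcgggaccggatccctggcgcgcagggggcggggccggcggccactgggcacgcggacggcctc
Dbp: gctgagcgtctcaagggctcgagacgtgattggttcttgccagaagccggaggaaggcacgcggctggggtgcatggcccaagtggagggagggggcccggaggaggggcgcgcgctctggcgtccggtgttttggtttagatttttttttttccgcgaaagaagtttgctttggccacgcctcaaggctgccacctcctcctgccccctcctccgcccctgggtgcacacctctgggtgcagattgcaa
The Ciart window holds 3 E-boxes, which begin 116, 58 and 44 bases before the start. The Per3 window holds 2 D-boxes, which begin 205 and 158 bases before the start. The Dbp window holds neither motif. Of all 27025 genes with a window of this length in the table, 6.86% have the E-box and 2.44% the D-box. Of the 16 measured clock genes with a window in the table, 5 hold an E-box (31.2%) and 1 a D-box (6.25%). The ROR half-site AGGTCA, the third motif, is in 4 of these 16 (25%) and in 15.8% of all genes with a window. The other E-boxes are in the windows of Bhlhe41, Cry1, Per1 and Tef. Of the other called genes, the Tle3 window holds 1 E-box, 68 bases before the start, and those of Etv6 and Pias3 hold neither motif. A match describes these letters and is not evidence of binding.

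None of these clock genes was called between the genotypes in CR males or AL females. In CR males the log2 changes, d3 minus WT, were -0.41 for Ciart, -0.17 for Dbp and 0.24 for Per3, and in AL females they were 0.49, 0.62 and 0.32 for the same genes in that order. The median over the 8 repressors was 0.078 in CR males and 0.34 in AL females. The difference between the diets was tested as an interaction in the fit over all groups. For Ciart the genotype change was 2.94 ± 0.56 (log2, SE) higher in AL than in CR males (limma adjusted p = 0.0343), a call lost in 13 of the 20 fits that omitted 1 male liver (adjusted p = 0.0595 to 0.128) and without the muscle-rich libraries. For Dbp the interaction was 2.94 ± 0.71 (adjusted p = 0.318) and for Per3 1.14 ± 0.35 (adjusted p = 0.887), neither past the threshold. Against AL females, the Ciart change in AL males was 2.03 higher and that of Dbp 2.15 higher, with adjusted p = 0.357 and 0.448.

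The diet comparison in WT males shares the WT AL livers with the genotype comparison, so its values are only set beside it. CR minus AL, the log2 changes in WT males were 5.13 for Ciart, 4.35 for Per3, 6.42 for Dbp and -5.86 for Arntl. Ciart averaged 1163 ± 191 normalized counts in d3 CR males and 1545 ± 245 in WT CR males, against 281 ± 173 in d3 and 49.4 ± 30.9 in WT AL males (mean ± SD of 5 livers per group). Each d3 AL male lay above the WT AL males and below the CR means of both genotypes.

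**Figure D2:**
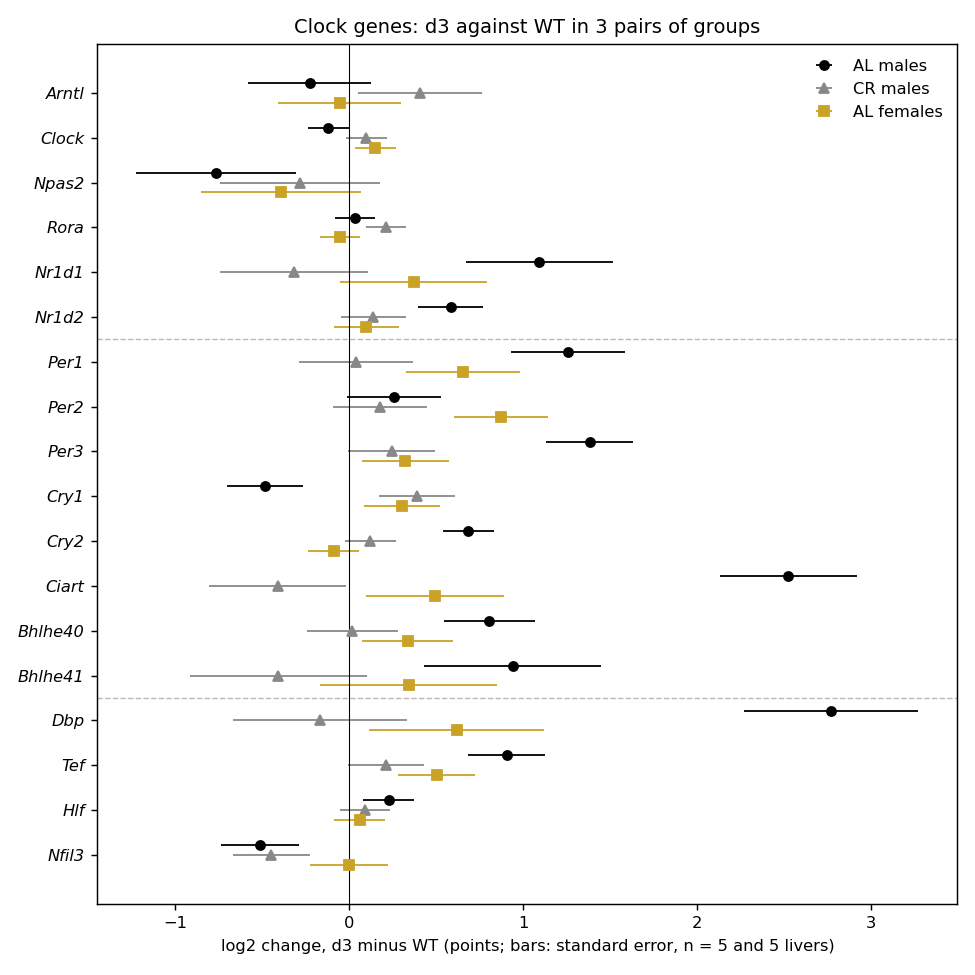
Log2 change of 18 clock genes, d3 minus WT, in AL males, CR males and AL females (points, with SE bars, 5 livers per group); dashed lines part the activators with the ROR and REV-ERB loop, the repressors and the outputs. The change of Ciart is 2.52 in AL males, -0.41 in CR males and 0.49 in AL females, and that of Dbp is 2.77, -0.17 and 0.62.

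The remaining 3 called genes encode regulators of transcription. Tle3 (ENSMUSG00000032280, chromosome 9, 61372366 to 61418497 on the plus strand, GRCm38) encodes a Groucho-type corepressor, which binds no DNA itself. It had 480.2, 347, 274, 496 and 408 normalized counts in d3 livers, against 488, 639, 637, 975 and 1197 in WT livers. WT replicate 1 lay within the d3 range and the other 4 WT livers above it, with WT replicates 5 and 4 the highest. The log2 change was -0.93 ± 0.19 (SE; 95% interval -1.31 to -0.54; limma adjusted p = 0.0495), and -0.57 without WT replicates 4 and 5 (adjusted p = 0.554). With a pseudocount of 10, without the filter on low values or with library weights the call also ended. Omitting any 1 of the d3 livers, WT replicate 4 or WT replicate 5 also ended the call (-1.01 to -0.76, adjusted p = 0.0592 to 0.257). In CR males the sign was the opposite, with 782 ± 111 normalized counts in d3 and 532 ± 94.5 in WT livers (SD, n = 5 each), a log2 change of 0.56 that did not pass on its own (adjusted p = 0.448). The interaction of genotype with diet was -1.49 ± 0.27 (log2, SE; limma adjusted p = 0.0311). In AL females the change was 0.41, and the interaction with sex was -1.34 (adjusted p = 0.123). Of the 4 other measured genes of the family, Tle2 had a change of 0.50 ± 0.18 and Tle1 one of -0.23 ± 0.23 (log2, SE), and none was called.

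Etv6 (ENSMUSG00000030199, chromosome 6, 134035700 to 134270158 on the plus strand, GRCm38), which encodes an ETS-family repressor, had 609, 839, 583, 685 and 709.6 normalized counts in d3 livers, against 898, 1089.7, 857, 954 and 1138 in WT livers. Every d3 liver lay below every WT liver, by a narrow margin between d3 replicate 2 and WT replicate 3. Its log2 change was -0.53 ± 0.10 (SE; 95% interval -0.74 to -0.32; limma adjusted p = 0.032). The call was lost without d3 replicate 1, 3 or 4 or WT replicate 2, 4 or 5, taken singly (-0.54 to -0.47, adjusted p = 0.0704 to 0.177). In AL females the change was 0.20 and in CR males -0.078. Neither interaction passed (adjusted p = 0.123 with sex and 0.959 with diet). The 4 other measured ETV genes had positive changes, of which Etv3 had the smallest unadjusted p at 0.20 ± 0.09 (SE).

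Pias3 (ENSMUSG00000028101, chromosome 3, 96696384 to 96706070 on the plus strand, GRCm38) encodes a SUMO ligase named for its inhibition of STAT3. It had 462, 502, 418, 392 and 366 normalized counts in d3 livers, against 263, 378, 301, 263 and 244 in WT livers. WT replicate 2 lay within the d3 range, and the other WT livers lay below every d3 liver. The log2 change was 0.57 ± 0.11 (SE; 95% interval 0.35 to 0.79; limma adjusted p = 0.032), with 0.067 in CR males and 0.066 in AL females. The call was lost without d3 replicate 1, 2, 3 or 4 or WT replicate 1, 4 or 5, taken singly (0.51 to 0.60, adjusted p = 0.0613 to 0.24), and with library weights. The related Pias1 and Pias4 had changes of 0.057 ± 0.068 and -0.0043 ± 0.086 (SE). Without WT replicates 4 and 5, the change of Etv6 was -0.47 and that of Pias3 0.45, and neither passed (adjusted p = 0.292 and 0.323). Without the muscle-rich libraries the changes were -0.68 for Tle3, -0.35 for Etv6 and 0.48 for Pias3. None of these passed (limma adjusted p = 0.659, 0.699 and 0.659).

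**Figure D3:**
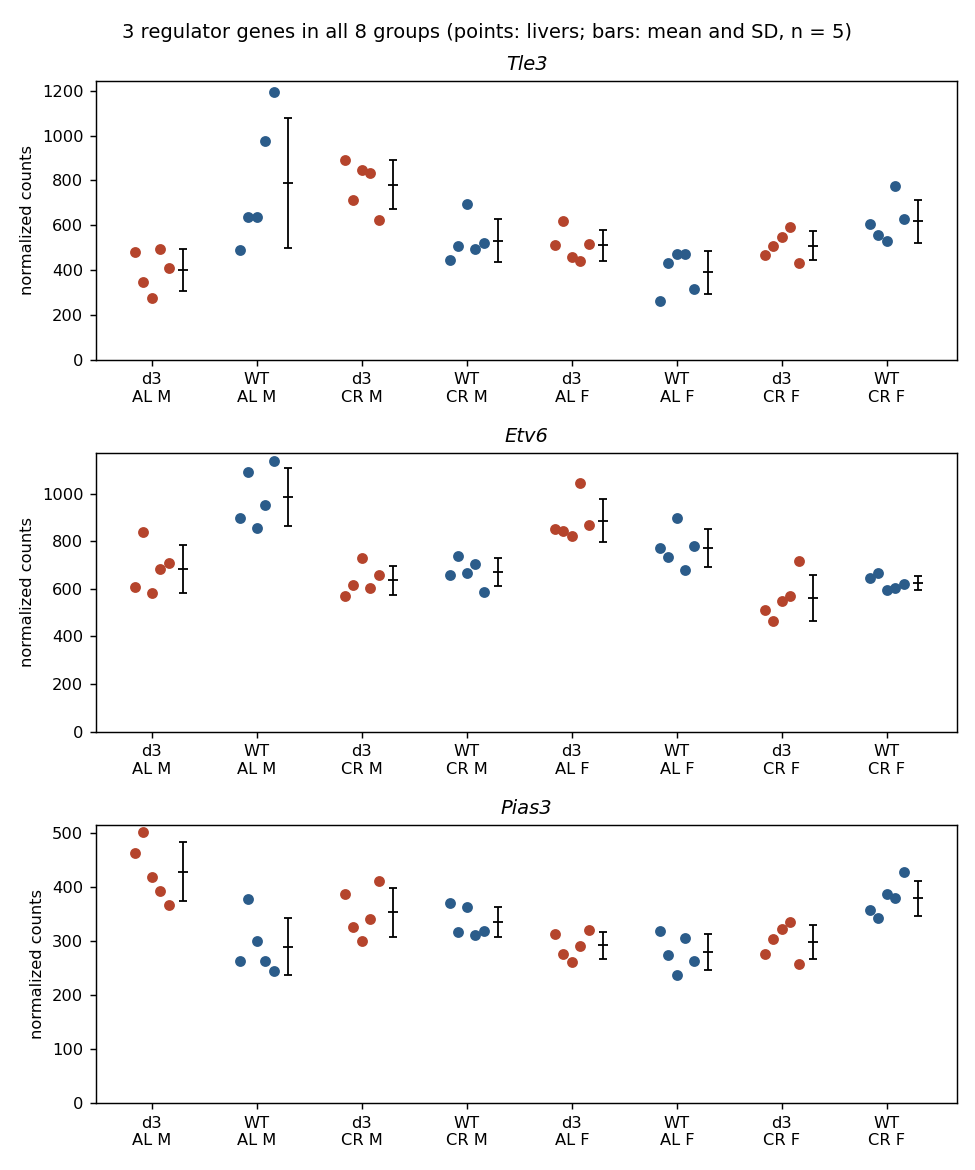
Normalized counts of Tle3, Etv6 and Pias3 in every liver of the 8 groups, d3 left of WT in each pair, with mean and SD of 5 livers. In AL males Tle3 and Etv6 are lower and Pias3 is higher in d3 than in WT livers, and in CR males the mean of Tle3 is higher in d3 (782) than in WT (532).

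Of 13 measured genes of growth hormone signalling, 0 were called. Only 0.0436% of all genes were called, so 0 calls in this list or those that follow do not set a list apart. A negative change was seen in 11 of the 13 (50% of all genes had one). The median was -0.22, or -0.025 without WT replicates 4 and 5. The kinase gene Jak2 had a change of 0.17 ± 0.16 and the transcription factor genes Stat5a and Stat5b had -0.021 ± 0.18 and 0.058 ± 0.14 (log2, SE). Cish and Socs2, feedback inhibitor genes that STAT5 induces, varied more within than between the groups. Cish had 61.3, 277, 772, 885 and 42.9 normalized counts in d3 livers, against 139.7, 52.7, 2917, 1172 and 202 in WT livers. Its log2 change was -0.67 ± 0.83 (SE), or -0.35 without WT replicates 4 and 5, and in both groups the level differed more than 10 times between the lowest and the highest liver. Socs2 ranged over 110.0 to 963 in d3 and 135 to 1594 in WT livers (-0.81 ± 0.62, SE), with a change of -0.47 without those 2 WT livers. Stat3, which carries interleukin signals to the acute phase genes, had 3641, 5029.6, 3857, 3597 and 3770.3 normalized counts in d3 livers, against 4168, 3699.5, 3592, 10149 and 8193 in WT livers. The WT livers above the others were replicates 4 and 5, and its change of -0.45 ± 0.18 (SE) became 0.05 without them. Ptpn1, a phosphatase gene acting on JAK2, had a change of -0.30 ± 0.10 (SE; limma adjusted p = 0.395), and -0.055 without those livers.

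Igf1, a STAT5 target whose expression in liver supplies most circulating IGF1, had 16377, 17568, 18049, 26872 and 12204 normalized counts in d3 livers, against 18806, 15614, 20784, 27119 and 18806 in WT livers. The groups overlapped, and the log2 change was -0.17 ± 0.20 (SE; 95% interval -0.58 to 0.23; limma adjusted p = 0.885). Of 7 measured genes for IGF1, its receptors and its binding proteins, 0 were called and the median was 0.057. Igfbp1, a binding protein gene that insulin represses, had 1116, 1405, 3469, 1803 and 19547 normalized counts in d3 livers, against 5732, 6925, 3323, 8805 and 1188 in WT livers. d3 replicate 5 was the highest of the 10 livers and the other 4 d3 livers were at or below 3469. The change was -0.57 ± 0.68 (log2, SE). Igfbp2 and Igfbp3 had changes of 0.057 ± 0.37 and 0.29 ± 0.22 (SE), and that of Igfbp2 turned to -0.42 without WT replicates 4 and 5.

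Sex-biased genes that growth hormone sets in mouse liver were also listed. Of 23 male-biased genes 0 were called, with a median of -0.082, and of 34 female-biased genes 0 were called, with a median of 0.036. With 0.0436% of all genes called, these counts of 0 do not set the lists apart from other genes. The filter took the mean over all 40 libraries, females included. Of the 34 female-biased genes, 3 were at 0 in every AL male liver and could not be called. Of 21 major urinary protein genes, male-biased carriers of pheromones, 0 were called and the median was -0.0075. In CR males the d3 minus WT medians of these 3 lists were -1.60, 0.61 and -1.39. Mup3 had 251903 to 295763 normalized counts in d3 and 253884 to 372838 in WT livers (-0.25 ± 0.37, SE, and -0.42 without WT replicates 4 and 5). Single members of this family share near-identical transcripts, between which kallisto divides reads by estimation. Cyp2b9, a female-biased P450 gene, was at 67.6 normalized counts in d3 replicate 4 and 77.1 in WT replicate 3, and at 0 to 5.24 in the other 8 livers. Fmo4, a female-biased flavin monooxygenase gene, had the smallest unadjusted p of its list, with 254 to 342 in d3 and 154 to 287 in WT livers (0.39 ± 0.13, SE; limma adjusted p = 0.371). Of 8 regulators of the sex pattern 0 were called. Bcl6, a repressor gene that is male-biased in liver, had a change of -0.94 ± 0.46 (SE; limma adjusted p = 0.618), with 389 to 1515 in d3 and 704 to 2562 in WT livers.

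Chaperone genes were lower in d3 by sign, with 0 called. All 14 measured cytosolic heat shock genes had a negative change (50% of all genes did), and 9 had an unadjusted p under 0.05, against 4.21% of all genes on that side. The median was -0.72, or -0.49 without WT replicates 4 and 5. Heat shock genes share a transcription factor, HSF1, so they are not independent counts. Hspa4, a gene for a large HSP70-related chaperone, had 4418, 4144, 4468, 4952 and 5085 normalized counts in d3 livers, against 5502, 5274, 6166, 5731 and 5221 in WT livers. Every d3 liver lay below every WT liver, and the log2 change was -0.28 ± 0.076 (SE; limma adjusted p = 0.225). Hsp90aa1, the inducible HSP90 gene, had 6469.8, 4031, 7816, 7363 and 11388 normalized counts in d3 livers, against 12280.4, 9936, 18508, 21735 and 8014 in WT livers. WT replicates 4 and 3 were highest, d3 replicate 2 was lowest, and the groups overlapped. Its change was -0.90 ± 0.32 (SE; limma adjusted p = 0.416). Chordc1, for a partner of HSP90, had -0.68 ± 0.25 and Hsp90ab1, the constitutive HSP90 gene, had -0.42 ± 0.16 (SE). In CR males the list's median was -0.24 and in AL females 0.36.

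All 16 measured endoplasmic reticulum stress genes also had a negative change, 9 at an unadjusted p under 0.05, with a median of -0.49. In 3 of them (Pdia6, Dnajb11 and Hsp90b1) the 2 groups did not overlap, where 0.726% of all genes lay wholly below WT. Pdia6, a protein disulfide isomerase gene, had 116, 100.1, 62.0, 46.7 and 86.9 normalized counts in d3 livers, against 123, 127, 319.6, 397 and 345 in WT livers. WT replicates 3, 4 and 5 were far above the other 7 livers, and the log2 change was -1.56 ± 0.43 (SE; limma adjusted p = 0.225). Without WT replicates 4 and 5 the Pdia6 change was -1.12 (limma adjusted p = 0.744). Dnajb11, a chaperone gene of the reticulum, had 3765, 3317, 3569, 3546 and 3179 normalized counts in d3 livers, against 3913, 4380.4, 4801, 6039 and 4792 in WT livers. The margin between d3 replicate 1 and WT replicate 1 was narrow, and the change was -0.45 ± 0.15 (SE; limma adjusted p = 0.371). Hsp90b1, for the HSP90 of the reticulum, had a change of -0.46 ± 0.18 (SE). Its margin was also narrow, with 25427 to 32138 normalized counts in d3 and 32304 to 50940 in WT livers. Xbp1, a regulator of the response, had a change of -0.42 ± 0.17 (SE), and -0.095 without WT replicates 4 and 5. Without those livers the list's median was -0.24. Of 14 genes of the ATF4 branch, 7 were higher and 7 lower, among them the pseudokinase gene Trib3 at 1.00 ± 0.35 and the stress factor gene Ddit3 at -0.56 ± 0.22 (log2, SE; limma adjusted p = 0.406 and 0.452). Without those WT livers the change of Trib3 was 0.63 and that of Ddit3 -0.24.

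The acute phase median rested on 2 WT livers. Of 23 genes measured, 22 had a negative change (50% of all genes did) and the median was -0.62. Without WT replicates 4 and 5 the median was 0.56, of the opposite sign. Neutrophil markers, 6 of 8 measured, were high in the same livers, with summed normalized counts of 193 and 154 in WT replicates 4 and 5, 16.0 to 72.6 in d3 livers and 16.9 to 34.0 in the other WT livers, and their part in these values was not tested. Steap4, an iron and copper reductase gene, had 1927, 2423, 1831, 2254 and 1567 normalized counts in d3 livers, against 1836, 1383, 3669, 16151 and 15141 in WT livers. WT replicates 4 and 5 were more than 4 times above every other liver, and the log2 change of -1.25 ± 0.42 (SE) became -0.09 without them. Fga, Fgb and Fgg, the fibrinogen chain genes, had changes of -0.73 ± 0.28, -0.67 ± 0.27 and -0.72 ± 0.26 (SE), and -0.053, -0.043 and -0.092 without those livers. The list of 22 cholesterol synthesis genes also turned sign, with medians of -0.25 over all livers and 0.12 without them. Idi1, an isoprenoid synthesis gene, had 10308 normalized counts in WT replicate 5 and 485 to 2222 in d3 livers. Immediate early genes (13 measured, median -0.024) were highest in WT replicate 4. Fos was at 7246 normalized counts there, against 26.4 to 262 in d3 and 31.96 to 198 in the other WT livers. Egr1 was at 20852 there, against 186 to 696 in d3 and 189.9 to 1172 in the other WT livers. Without WT replicates 4 and 5 that median was 0.45.

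**Figure D4:**
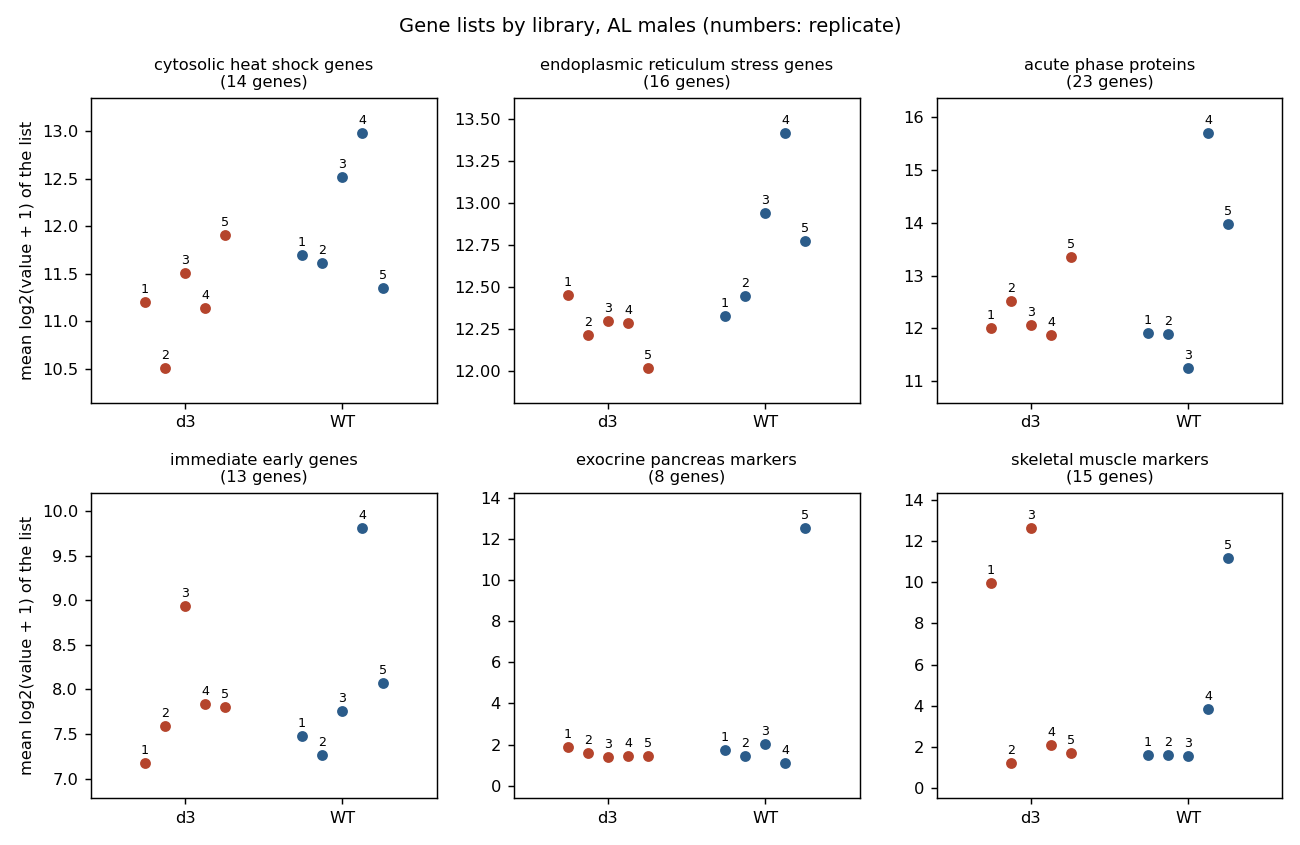
Mean log2(value + 1) of 6 gene lists in each AL male liver, d3 at left and WT at right, numbered by replicate. Acute phase genes are highest in WT replicates 4 (15.69) and 5 (13.97), pancreas markers in WT replicate 5 alone, and muscle markers in d3 replicates 1 and 3 and WT replicate 5.

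Lists of metabolic and interferon response genes held 0 called genes, where 0.0436% of all genes were called. By sign alone, 50% of all genes were lower and 49.9% higher in d3. Genes of 1 list can vary together between livers, so the sign counts below are not independent counts. Of 22 PPARA targets of fat oxidation and ketogenesis, 18 had a negative change, with a median of -0.11, or -0.43 without WT replicates 4 and 5. Plin2, the lipid droplet coat gene, had 19164, 13708, 24431, 21141 and 27581 normalized counts in d3 livers, against 37446, 31762, 38977, 25976 and 34807 in WT livers. Only WT replicate 4 lay within the d3 range, and the change was -0.70 ± 0.27 (SE; limma adjusted p = 0.452). Fgf21, a hormone gene induced by fasting, ranged over 30.6 to 300.3 in d3 and 71.9 to 419 in WT livers (-0.81 ± 0.71, SE), and its change was -1.63 without WT replicates 4 and 5. Of 17 genes of the urea cycle and amino acid breakdown, 15 had a positive change, with a median of 0.24. Sds, serine dehydratase, led them at 0.60 ± 0.28 (SE; limma adjusted p = 0.583). Of 21 interferon and antigen presentation genes, 19 had a negative change, with a median of -0.23, or -0.33 without WT replicates 4 and 5. Psmb8, an immunoproteasome gene, had 280.3, 373, 309, 312 and 355 normalized counts in d3 livers, against 546, 409, 402, 451 and 546 in WT livers. No d3 liver reached the lowest WT liver, and the change was -0.52 ± 0.21 (SE; limma adjusted p = 0.476).

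The lists for de novo lipogenesis (0.19), glucocorticoid response (0.19), glucose control (0.074), bile acids (0.041), xenobiotic receptors (0.017), complement and coagulation (-0.13), oxidative phosphorylation (-0.054), ribosomal proteins (-0.095) and the cell cycle (-0.16) each held 0 called genes, with the median log2 changes in brackets. Without WT replicates 4 and 5 the median of complement and coagulation turned to 0.034 and that of ribosomal proteins to 0.0041. The same omission gave 0.37 for glucocorticoid response, 0.10 for lipogenesis, -0.13 for oxidative phosphorylation and -0.034 for the cell cycle. Nr1i3, for the xenobiotic receptor CAR, had 8518 to 13006 in d3 and 7581 to 9415 in WT livers (0.41 ± 0.18, SE; limma adjusted p = 0.533). In the cell cycle list, Mcm4, a subunit gene of the replicative helicase, was lower in every d3 liver (84.7 to 117) than in every WT liver (118 to 179), and Rrm2, a ribonucleotide reductase gene, was higher (124 to 156 in d3 and 63.9 to 121 in WT livers). Their log2 changes were -0.47 ± 0.17 and 0.63 ± 0.29 (SE), with limma adjusted p = 0.416 and 0.578.

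**Figure D5:**
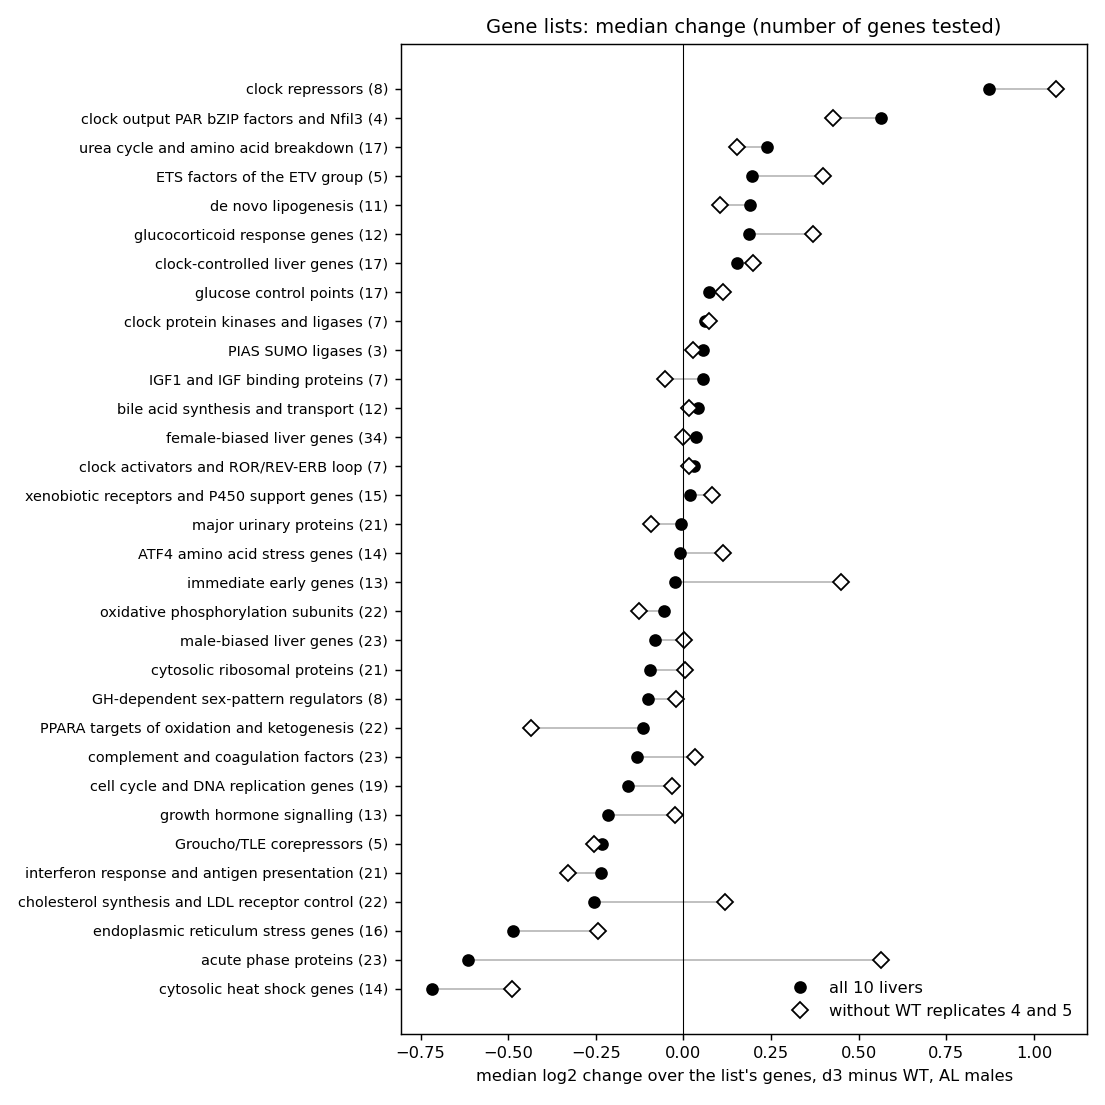
Median log2 change, d3 minus WT in AL males, of each of 32 gene lists over all 10 livers (filled) and without WT replicates 4 and 5 (open); brackets give the genes tested. Clock repressors have the highest median (0.87 and 1.06) and heat shock genes the lowest over all livers (-0.72 and -0.49). Acute phase genes turn sign (-0.62 and 0.56). The lists were chosen with earlier results of these data known.

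The 2 groups did not overlap for 197 of the 13776 genes tested (1.43%). Of these, 98 also had an unadjusted p under 0.01 in limma, and 54 lay above and 44 below the WT livers. The genes named next were picked by these same values. After Ciart, the largest increase was that of Tunar, a long non-coding RNA gene, which had 18.0, 47.1, 28.7, 18.4 and 35.2 normalized counts in d3 livers, against 8.22, 15.6, 3.76, 11.8 and 3.54 in WT livers and a change of 1.76 ± 0.52 on the log2 scale (SE; limma adjusted p = 0.286). Ephb2, an ephrin receptor gene, had 226, 269.7, 156, 125 and 155 normalized counts in d3 livers, against 61.0, 114, 56.4, 82.6 and 87.2 in WT livers. Its change was 1.20 ± 0.29 (SE; limma adjusted p = 0.151). Trem2, a receptor gene of macrophages, had 249.6 to 392 in d3 and 93.99 to 226.7 in WT livers (0.82 ± 0.28, SE), while all 10 Kupffer cell markers had a negative change (median -0.25, 0 called). Apc2, Gabre, Zc3h6, Zfp945 and the odorant receptor genes Olfr901 and Olfr1129 completed the 10 largest increases, at log2 changes of 0.91 to 1.43, none past the adjusted threshold.

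The largest decreases were Pdia6, above, and Hhex, a homeobox gene of liver and bile duct development. Hhex had 616, 770.3, 410.0, 970.2 and 777 normalized counts in d3 livers, against 1435, 1123, 3316, 1038 and 2171 in WT livers. The change was -1.27 ± 0.46 (SE; limma adjusted p = 0.416) and was -1.36 without WT replicates 4 and 5. Dynll1, a dynein light chain gene, had 314, 249.7, 309, 309.9 and 394 normalized counts in d3 livers, against 480.0, 427, 504, 987 and 673 in WT livers. The highest WT liver was replicate 4, and the change was -0.91 ± 0.21 (SE; limma adjusted p = 0.144) over all livers and -0.59 without WT replicates 4 and 5. Il27ra, an interleukin receptor gene, was at 114 normalized counts in WT replicate 5, the liver with the most lymphocyte marker RNA, and at 18.2 to 29.6 in d3 and 33.6 to 47.2 in the other WT livers. Whether other cells gave these counts was not tested. Rbfox2, a splicing factor gene, ranged over 138 to 538 in d3 and 599 to 708 in WT livers (-0.84 ± 0.25, SE). Zfp296, Nmnat2, H3c14, Fam111a and Spdya had log2 changes of -1.10 to -0.67, none past the adjusted threshold.

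The authors' deposited table of their own comparison called 54 genes in AL males at an adjusted p under 0.05 (0.472% of its rows with an adjusted p), 24 higher and 30 lower in d3. All 54 had the same sign in limma, 50 had an unadjusted p under 0.05 there and 6 were called. In 19 the groups did not overlap, against 1.43% of all genes tested. The authors' calls come from the same livers, so these counts and those that follow are no independent check. Of the 24 higher genes, all 24 had an unadjusted limma p under 0.05, with and without WT replicates 4 and 5. Of the 30 lower genes, 26 did over all livers and 18 without those livers. In 17 of the 30 the highest WT liver was replicate 4 and in 12 it was replicate 5. A call lower in d3 selects for high WT values, and the share over all genes is not given here. Mt1, a metallothionein gene, was called lower in the authors' deposited table and had 1474, 2543, 1735, 1556 and 3870.4 normalized counts in d3 livers, against 3137, 5419.8, 113, 44816 and 27952 in WT livers. WT replicates 4 and 5 were at least 5 times above every other liver and WT replicate 3 was below every d3 liver. The limma change was -1.19 ± 0.77 (SE) over all livers and 0.74 without those, and it passed without WT replicate 3 (-2.54, adjusted p = 0.0153). Slc10a2, a bile acid transporter gene that the authors' deposited table called lower, was at 1606 and 921 normalized counts in WT replicates 4 and 5 and at 125.6 to 244.2 in the other 8 livers. Cxcl1, a chemokine gene called lower by edgeR and named after its values were seen, was at 10525.5 and 1499 normalized counts in those WT livers and at 26.4 to 205 elsewhere.

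Among the higher genes of the authors' deposited table, Ppargc1b, which encodes the metabolic coactivator PGC-1 beta, had 254, 422, 440.3, 289 and 347 normalized counts in d3 livers, against 156, 258, 150.4, 119 and 114 in WT livers. WT replicate 2 was the one WT liver at the edge of the d3 range. The change was 1.16 ± 0.24 (SE) and just missed the threshold (limma adjusted p = 0.0534), which it passed without that liver (1.35, adjusted p = 0.00754). Map2k6, a kinase gene upstream of p38, had 181, 398, 135, 172 and 176 normalized counts in d3 livers, against 89.2, 152, 47.0, 52.4 and 51.9 in WT livers. WT replicate 2 overlapped the lowest d3 liver, and the change was 1.47 ± 0.32 (SE; limma adjusted p = 0.069), or 1.74 without WT replicate 2 (adjusted p = 0.00754). Between CR and AL WT males, again with shared WT AL livers, Ppargc1b had a log2 change of 1.56 and Map2k6 one of 3.10. Zmym5, a zinc finger gene, and Arvcf, a catenin family gene, had changes of 0.44 ± 0.10 and 0.66 ± 0.16 (log2, SE; limma adjusted p = 0.122 and 0.151). Zmym5 passed without WT replicate 1 (0.54, adjusted p = 0.0137), and its change was 0.29 without WT replicates 4 and 5.

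The genotype effect differed between AL and CR males in 3 genes by the interaction test (0.0218% of genes tested), which were Ciart, Tle3 and Cyp2b13. Each kept its sign but was no longer past the threshold in 9 to 13 of 20 fits that omitted 1 male liver, at adjusted p of 0.0507 to 0.128. The Cyp2b13 difference came from the CR side. In AL males this female-biased P450 gene was at 0 to 1.06 normalized counts in d3 and 0 to 1.88 in WT livers, too few for a ratio, and in CR males it averaged 1401 ± 1124 in d3 and 66.9 ± 55.6 in WT livers (SD, n = 5 each). The interaction was -4.76 ± 0.88 (log2, SE; limma adjusted p = 0.0311). At an unadjusted p under 0.05 there were 556 genes (4.04%), and edgeR called 1 (0.00726%). Between AL males and AL females, 0 genes differed in genotype effect by limma, with 1056 (7.67%) at an unadjusted p under 0.05 and 0 by edgeR.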

How the data were processed

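Liver RNA of 40 mice was sequenced, 5 in each of 8 groups of genotype, sex and diet. The submitters' processing notes name kallisto, DESeq2, Trimmomatic, FastQC and MultiQC, with build GRCm38 and no versions or settings. The authors deposited a table of normalized signal per gene, made by dividing each library's read counts by a factor. Division of the signal by the step between low values returned whole reads (tolerance 0.01) for 100% of values. In 2 libraries of AL females the step lay near 1 and could not be told from rounding. A deposited table of the authors' own genotype comparison gives log2 fold changes and adjusted p-values, of which the p-value is missing for 6180 of the rows.

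Of 17839 rows, 115 repeats were dropped, and the 13776 genes with a mean of at least 10 over 40 libraries were tested on log2(value + 1), which understates the change of low genes. limma 3.58.1 in R 4.3.3 (lmFit, eBayes with a trend) fitted all 8 groups in 1 model, with Benjamini-Hochberg adjustment over all genes and a threshold of 0.05. Interactions compared the genotype change in AL males with that in CR males and in AL females. The limma and edgeR fits were also run on simulated counts, which held no outlying livers and no RNA of other tissues. That run does not test how such livers affect the calls. Alternatives were a pseudocount of 10, no filter, extra scaling, the compared groups alone, library weights, edgeR 4.0.16 (quasi-likelihood, TMM) on the recovered reads, and fits without single livers, without WT AL males 4 and 5, or without 17 libraries with a mean log2 muscle marker level of at least 8.

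Positions are from GENCODE M21 on GRCm38 (17672 identifiers matched). The comparison and the gene lists were chosen with earlier results of these data known. Named genes are Ghr, all called genes, the clock, growth hormone and IGF lists, up to 4 members of each further list by unadjusted p, the 10 largest changes in each direction among genes with groups that did not overlap at an unadjusted p under 0.01, interaction calls, and leading calls of the authors. Predicted genes were not named, and genes that edgeR alone called were added after seeing the data. Replicate numbers follow record order and pair nothing. Some list members enter the counts and medians of their lists but are not reported singly here.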

Additional observations from a re-analysis of the deposited data

Results flagged for a closer look

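In a group of 5 livers, a value was singled out when its gap to the nearest liver exceeded 0.71 of the group's range. Chance singles out about 1 in 20 groups, and 98 groups were looked at. Among d3 AL males the gap was 0.739 of the range for Ciart, where replicate 2 was high, and 0.914 for Dbp, where replicate 5 was low. For the list of PAR bZIP factors and Nfil3 it was 0.776, with replicate 5 low, and for the neutrophil markers 0.894. Among WT AL males the gap was 0.772 for xenobiotic receptors and P450 support genes, 0.761 for skeletal muscle markers, 0.919 for exocrine pancreas markers and 0.847 for adipocyte markers. WT replicate 5 was the liver apart for muscle, pancreas and adipocyte markers.

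A further 3 results were singled out because the genotype change differed between AL and CR males by the interaction test in limma. The difference in log2 change was -1.49 for Tle3, 2.94 for Ciart and -4.76 for Cyp2b13. Cyp2b13 was near 0 in both genotypes of AL males, and its interaction reflects the CR males.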

How the results depend on the processing

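Against 6 genes called between d3 and WT AL males, the count was 0 with the compared groups fitted alone, 0 without the muscle-rich libraries and 15 with edgeR. A pseudocount of 10 and no filter each gave 5 calls, without Tle3. Library weights gave 5, without Pias3 and Tle3 and with Id1. Without WT AL males 4 and 5 there were 4, of which Ciart was among the 6. Leaving out single livers gave 1 to 11 calls, with 1 without d3 replicate 1, d3 replicate 4 or WT replicate 5, 2 without d3 replicate 2 or 3, and 11 without WT replicate 2. edgeR's 9 further calls were Cry2, Steap4, Cxcl1 and 6 genes for pancreatic enzymes that were high in WT replicate 5 alone. Of the 6 calls, Ciart passed in all 10 fits without a single liver, Pias3 and Tle3 in 3, Etv6 and Dbp in 4, and Per3 in 5.

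The interaction of genotype with diet gave 3 calls, and 1 with the compared groups alone, 1 with edgeR, 1 without WT AL males 4 and 5, 0 without the muscle-rich libraries and 0 to 5 without single livers. The interaction with sex gave 0 calls, 5 with library weights and 0 to 1 without single livers. Over the single genes, the counts and all alternatives, 3187 values kept their side of the threshold, 94 no longer passed, 19 newly passed, and none that was called turned sign. The count of called clock genes, 3, moved to 0 or 1 under 6 alternatives. It changed by less under others, in both directions. Without WT replicate 1 the called clock genes were Ciart and Dbp, and with edgeR Cry2 joined the 3. The cause of these shifts was not tested. No paired analysis was possible because the replicate numbers follow record order and pair nothing.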
